A study of Danio rerio with 28 samples.

Results

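The 7 genes described here encode the NADPH oxidase and the inducible nitric oxide synthases that gut epithelium uses to make reactive oxygen and nitrogen species: nox1, noxo1a, noxo1b, cyba, duox, nos2a and nos2b. They were taken by name, as a set chosen with earlier results of these data known. Of the 7, 6 had 1 row each among the 16134 rows of the count table of experiment 1 and 1 row each among the 15419 rows of experiment 2. duox had no row used here. The study sequenced RNA from guts of zebrafish larvae, taken at 7 days post-fertilization, as 28 libraries of 10 to 15 pooled guts each, and its title ties interleukin-22, gut motility and the microbiota together. Experiment 1 compared wild type with il22-/- larvae (the knockout), and its labels do not state the housing. Experiment 2 held wild type and knockout larvae reared conventionally, wild type and knockout larvae reared axenically (germ-free), and knockout larvae that were co-housed, the labels not saying with whom. All 7 groups had 4 libraries, and how the il22 allele was made is not in the labels used here. Because each library is a pool of guts, p-values measure the spread between pools and not between larvae.

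NOX1 is a membrane oxidase of colon and gut epithelium in mammals that passes electrons from NADPH to oxygen and so makes superoxide. It works only with its membrane partner p22phox, encoded by cyba, and with the cytosolic organizer NOXO1 and the activator NOXA1, which take the place of the cytosolic subunits of the phagocyte enzyme. Zebrafish carry a pair of organizer genes, noxo1a and noxo1b. DUOX makes hydrogen peroxide at the apical face of epithelia, and inducible nitric oxide synthase, the product of nos2a and nos2b, makes nitric oxide from arginine when cells meet microbial or cytokine signals. Interleukin-22 signals to epithelial cells through STAT3.

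Library totals ran from 30.24 to 37.95 in units of 1e+06 counts in experiment 1 and from 22.26 to 31.0 in experiment 2. Summed counts per 1e+06 (CPM) of an enterocyte marker list lay between 14839 and 25190 in all 28 libraries, over 6 genes in experiment 1 and 8 in experiment 2. Single genes of this list did move: in the knockout of experiment 1, 3 of 6 tested fell. In the conventional knockout 3 of 7 rose and 3 fell, and in the germ-free knockout 2 of 7 fell. Of all genes 33.1%, 36.2% and 26.8% were called in these comparisons. The sum of a skin epithelium list was higher in every knockout group, at 6327 to 7184 CPM against 1274 to 1773 CPM in wild type of experiment 1 and at 4507 to 6373 CPM against 1740 to 3299 CPM in experiment 2. That sum was mostly krt4, and the list did not move as one: in experiment 1 krt4 and krt91 rose and agr1 and evpla fell of 6 tested, in conventional larvae krt4 rose and cyt1l fell of 7, and in germ-free larvae krt4 alone passed. A goblet and secretory list, of which only agr2 and clca1 had a row, was at 274 to 299 CPM in experiment 1 wild type and at 48.9 to 65.5 CPM in its knockout. Of a lysosome-rich enterocyte list of 6, 2 genes had a row in experiment 1, with sums of 448 to 750 CPM in wild type and 155 to 222 CPM in the knockout. In experiment 2 conventional wild type was at 1706 to 2231 CPM and conventional knockout at 2298 to 2960 CPM over 3 genes. This list did not move as one either. In the knockout of experiment 1, 1 of 2 tested rose and 1 fell, and in the conventional knockout 2 of 3 rose and 1 fell. The part of these lists in the results was not tested, and in bulk RNA fewer cells of a type cannot be told apart from less RNA per cell. Skeletal muscle markers stood out in conventional wild type 1 (833 CPM), germ-free wild type 2 (664 CPM) and co-housed knockout 2 (178 CPM), against at most 77.6 CPM elsewhere.

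In experiment 1 the NOX1 complex was lower in the knockout at all of its 4 measured genes. nox1, the catalytic subunit, stood at 29.3, 29.5, 28.2 and 56.6 CPM in wild type 1 to 4 and at 2.59, 3.21, 8.45 and 7.59 CPM in knockout 1 to 4. Every knockout library was below every wild type library, and wild type 4 stood well above the other wild type libraries. The mean fell from 35.9 ± 13.8 to 5.46 ± 2.99 CPM (SD, n = 4), or −2.72 ± 0.44 on the log2 scale (SE), and the adjusted p was 0.00276.

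The organizer noxo1b had the largest fold of the complex. Its wild type libraries held 20.6, 19.0, 18.4 and 58.5 CPM (592 to 1966 counts) and its knockout libraries 0.800, 0.649, 3.55 and 2.55 CPM (21 to 108 counts). The groups did not overlap, wild type 4 was again the highest, and knockout 3 and 4 were above knockout 1 and 2, as they were for nox1. The fitted level was 15.5-fold lower in the knockout, or −3.95 ± 0.68 in log2 (adjusted p = 0.00392), and only 0.28% of the 10710 genes tested had a lower value. noxo1a, the other organizer, stood at 19.1, 26.5, 33.3 and 65.7 CPM in wild type and at 3.79, 10.5, 4.57 and 7.55 CPM in the knockout. It too did not overlap, with knockout 2 the highest of its group, and fell by 2.45 ± 0.48 in log2 (adjusted p = 0.0066). Of the summed TPM (transcripts per 1e+06, a level per length) of both organizers, noxo1b made up 36.7% to 53.2% in wild type and 6.14% to 45.0% in the knockout.

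cyba, which the phagocyte oxidase shares, changed least of the 4. Wild type libraries stood close together at 40.6, 43.0, 44.0 and 42.4 CPM, and knockout libraries at 23.0, 26.5, 29.0 and 23.6 CPM. The fall of 0.74 ± 0.08 on the log2 scale had an adjusted p of 0.000186 and no overlap, and it was the most precise of the members. Wild type 4, far above its group for nox1 and noxo1b, was inside it for cyba. The ratio of cyba to nox1 TPM was 1.25 to 2.61 in wild type and 5.22 to 14.9 in the knockout.

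The nitric oxide synthase genes were near the limit of counting. nos2a stood at 0.736, 0.413, 0.806 and 1.28 CPM in wild type (17 to 43 counts) and at 0.123, 0.216, 0.362 and 0.420 CPM in the knockout (4 to 13 counts). It fell by 1.51 ± 0.44 on the log2 scale (adjusted p = 0.0268), although wild type 2 lay just under knockout 4. The call was lost when wild type 3, wild type 4, knockout 1 or knockout 2 was left out (adjusted p of 0.0564, 0.0797, 0.0638 and 0.0698). nos2b did not pass, with 0.708 to 1.60 CPM in wild type, 1.02 to 1.90 CPM in the knockout and a log2 fold change of 0.25 ± 0.29 (adjusted p = 0.542).

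Counted together, 5 of 6 members were lower and 1 did not pass, where 17.0% of all genes tested were lower and 33.1% changed in either direction. The knockout libraries lay wholly under the wild type libraries for 4 of 6 members, against 18.0% of all genes. The median log2 fold change of the members was −1.98 and that of all genes −0.01. As the members were chosen with earlier results known, these counts describe the set and are no independent test. il22 itself stood at 3.99 to 13.8 CPM in wild type, highest in wild type 4, and at 0.154, 0.433, 1.91 and 1.13 CPM in knockout 1 to 4. stat3 was at 193 to 237 CPM in wild type, against 50.8, 53.0, 75.8 and 78 CPM in knockout 1 to 4. For il22, stat3, noxo1b and nox1 alike, knockout 3 and 4 were the higher pair of that group. The same held for nos2a but not for noxo1a, cyba or nos2b, and a link between these levels was not tested.

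**Figure D1:**
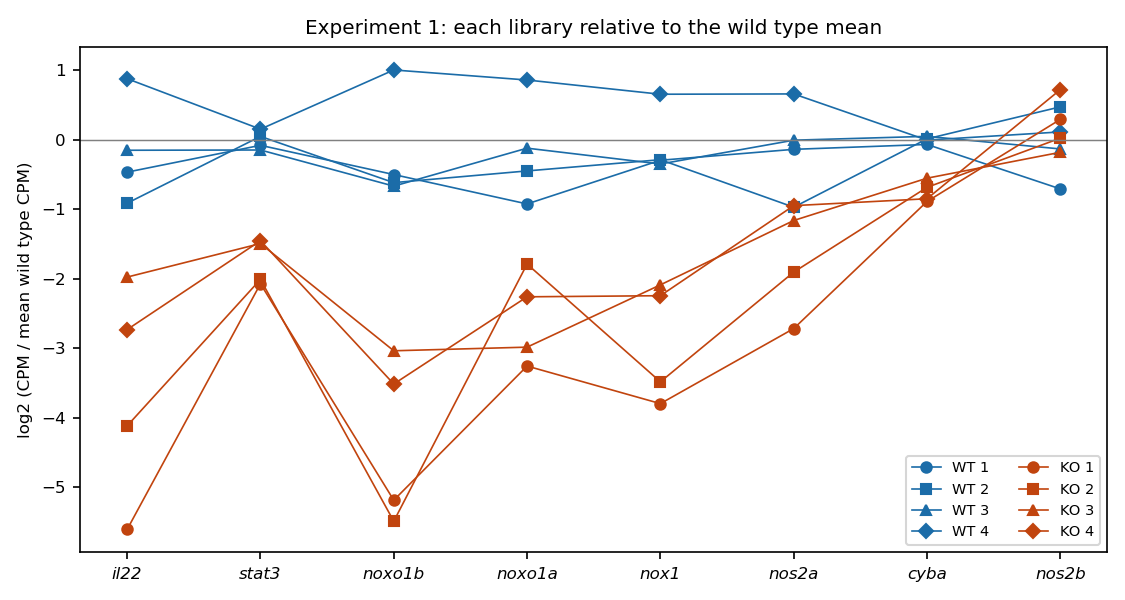
Level of 8 genes in the 8 libraries of experiment 1, as log2 of CPM over the mean wild type CPM (y axis); blue lines are wild type libraries, red lines knockout libraries, and the symbol gives the library number. il22, stat3, noxo1b, noxo1a, nox1 and cyba separate the genotypes, nos2a meets at 0.413 and 0.420 CPM, nos2b mixes, and wild type 4 (diamond) is highest for il22, noxo1b, noxo1a, nox1 and nos2a.

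The profile of noxo1b over the 8 libraries was closest to plac8.2, il22 and sele. Likeness was the root-mean-square difference in centred log2 CPM, which was 0.41, 0.59 and 0.61 for these genes against a spread of noxo1b about its own mean of 2.2. plac8.2 was at 21.4 to 58.3 CPM in wild type and at 1.17, 0.989, 5.63 and 3.10 CPM in knockout 1 to 4. nox1 ranked 8 of all genes by likeness to noxo1b, at 0.69. For nox1 the closest genes were ggt1a (0.30), rnf183 (0.35) and the chaperone gene hsp70l (0.37), and rnf183 was at 32.6 to 54.6 CPM in wild type and 5.05 to 9.31 CPM in the knockout. The genes closest to noxo1a were cfap96, etnk2 and npepps, those closest to cyba were fam162a, rbbp7 and the lysosomal membrane gene lamp1b, and those closest to nos2a were rgs2, lnx2a and rasd1. nos2b was closest to eppk1, nme5 and itgb1b.1. Libraries of a group share their genotype, so every gene lower in the knockout has some likeness by this measure.

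Across the series the NOX1 complex genes were at their highest in wild type of experiment 1. On the TPM scale noxo1b averaged 17.8 ± 11.5 there (SD, n = 4), 1.12 ± 0.827 in the knockout of that experiment and between 0.16 and 0.388 in the 5 groups of experiment 2. noxo1a averaged 21.0 ± 11.4 TPM in wild type of experiment 1, 3.75 ± 1.75 TPM in its knockout and 0.505 to 1.35 TPM in experiment 2. In both cases wild type of experiment 1 did not overlap the next group, and every later neighbour in the order overlapped the one before it.

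nox1 ranked differently. After 27.6 ± 10.0 TPM in wild type of experiment 1 came germ-free wild type at 6.48 ± 1.21 TPM, the knockout of experiment 1 at 4.05 ± 2.13 TPM, conventional wild type at 3.12 ± 2.72 TPM, germ-free knockout at 3.08 ± 0.404 TPM, conventional knockout at 2.12 ± 0.517 TPM and co-housed knockout at 2.07 ± 1.00 TPM. Only the first of these was separate from its neighbour. Without its library 4 conventional wild type averaged 1.77 ± 0.395 TPM (n = 3) and came last. cyba ran from 55.0 ± 3.23 TPM in wild type of experiment 1 to 25.5 ± 1.69 TPM in germ-free wild type. For nos2a the order began with germ-free wild type at 0.53 ± 0.433 TPM and ended with conventional knockout at 0.025 ± 0.00577 TPM. nos2b was highest in germ-free knockout, at 0.733 ± 0.172 TPM, and lowest in conventional wild type, at 0.16 ± 0.0678 TPM.

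Between genes, levels per length put cyba first in every group. In wild type of experiment 1 the mean TPM was 55.0 for cyba, 27.6 for nox1, 21.0 for noxo1a, 17.8 for noxo1b, 0.453 for nos2b and 0.315 for nos2a. Conventional wild type of experiment 2 had 33.2, 3.12, 0.915, 0.300, 0.160 and 0.055 TPM for the same genes. The synthases were not last everywhere: nos2a was above noxo1b in germ-free wild type (0.53 against 0.188 TPM), and nos2b was above noxo1b in the 3 knockout groups of experiment 2.

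**Figure D2:**
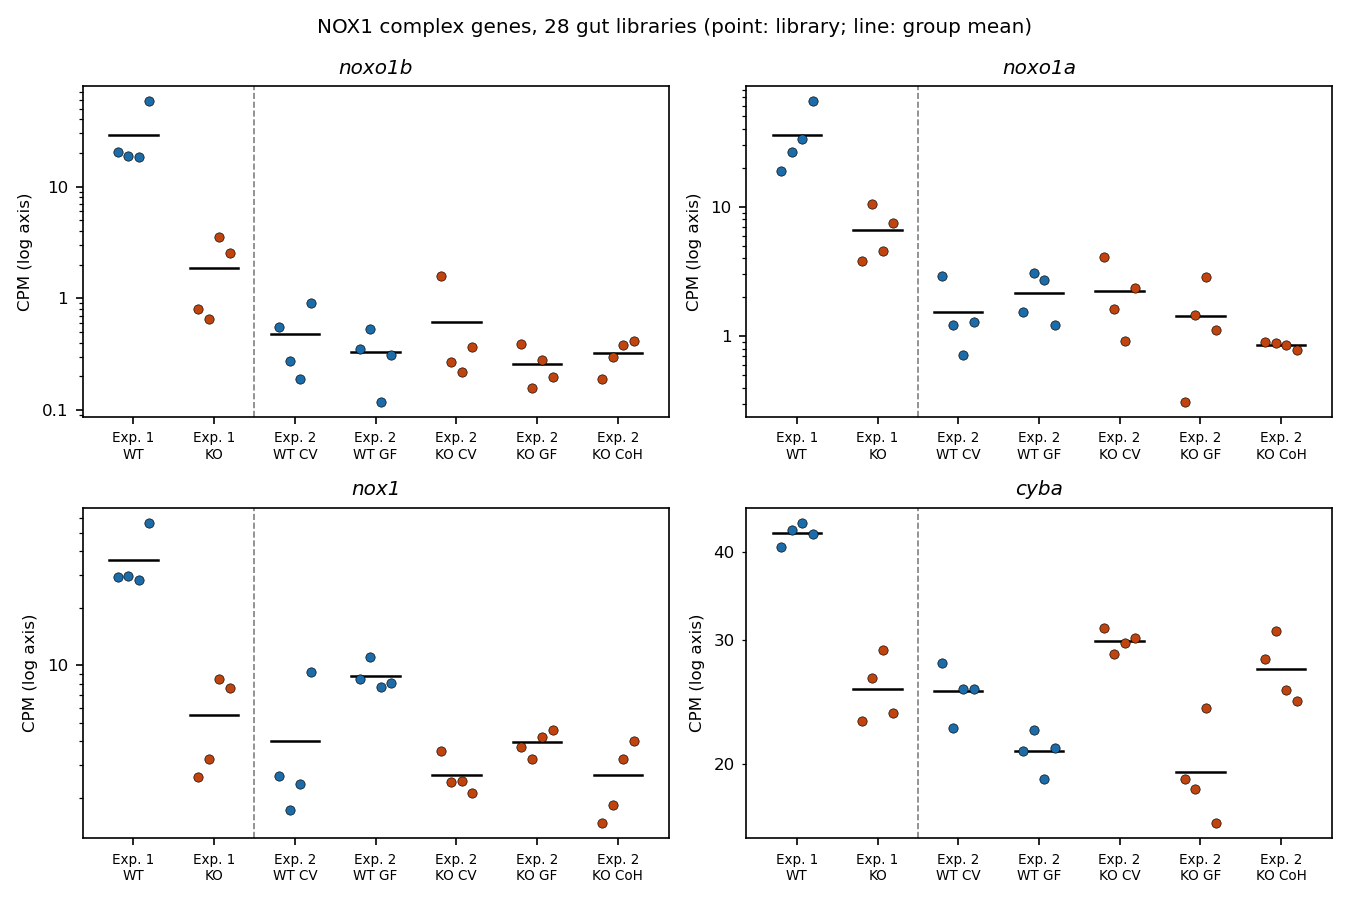
CPM of noxo1b, noxo1a, nox1 and cyba in each of 28 libraries (log y axis, tick values in CPM), by group; blue points are wild type, red points knockout, horizontal lines group means, and the dashed line parts the separately counted experiments. noxo1b is at 18.4 to 58.5 CPM in wild type of experiment 1 and at or under 1.58 CPM in all of experiment 2, while cyba stays between 16.5 and 44.0 CPM everywhere.

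The wild type groups of the 2 experiments thus differed in these genes, which is given as a description, because the tables were counted separately and the housing in experiment 1 is not stated. The mean TPM of wild type in experiment 1 over that of conventional wild type in experiment 2 was 59.2 for noxo1b, 23.0 for noxo1a, 8.86 for nox1 (15.6 without conventional wild type 4), 2.83 for nos2b and 1.66 for cyba. Of 10372 genes tested in both tables, 0.0193% were as low or lower than noxo1b in this comparison, 0.0482% as low as noxo1a and 0.193% as low as nox1. The lengths implied by counts and TPM were alike in the 2 tables for these members, which does not show that reads were assigned alike in both. Relative to cyba they were 2.1 for noxo1b, 1.67 for nox1 and 3.27 for nos2a in each table, and 2.2 and 2.21 for noxo1a. Between the knockout groups the same ratios were 2.88 for noxo1b (6.21 without conventional knockout 1), 2.77 for noxo1a (3.86 without it), 1.91 for nox1, 1.1 for nos2b and 0.802 for cyba. il22, too, was low in conventional wild type, at 0.130, 0.0342, 0.680 and 0.595 CPM, and stat3 was at 44.6 to 69.4 CPM there, so both lay below their wild type range of experiment 1. In experiment 2 the level of il22 did not separate the labelled genotypes: conventional knockout libraries had 0.0385 to 0.329 CPM, and co-housed knockout 4 had 1.03 CPM, above every wild type library of that experiment.

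Experiment 2 measured the knockout again under conventional and germ-free rearing. Before these results, conventional wild type 4 stood apart from the other 3 libraries of its group: it had 9.23 CPM of nox1 against 1.74 to 2.63 CPM, 301 CPM of arg2 against 153 to 191 CPM, 4.30 CPM of the interferon transducer gene stat1b against 0.357 to 0.786 CPM, and 25.5 CPM of ncf1 against 41.9 to 45.2 CPM. In all 4 genes it lay toward the germ-free wild type libraries. No set rule chose these 4 genes, and other values of this library did not lie that way. It had 0.909 CPM of noxo1b, against 0.118 to 0.526 CPM in germ-free wild type and at most 0.552 CPM in the rest of its group. Its macrophage marker sum of 30.9 CPM was above the 12.2 to 18.9 CPM of germ-free wild type. Its cyba level of 25.6 CPM was inside its own group. Test results for nox1 that use this group are therefore given with and without it. As the library was singled out in part by nox1 itself, the nox1 results without it are no independent support in any comparison. Results for arg2, stat1b and ncf1 are given only with it.

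Under conventional rearing the NOX1 complex genes did not pass the test between genotypes. noxo1b was at 0.552, 0.273, 0.189 and 0.909 CPM in wild type and at 1.58, 0.269, 0.220 and 0.363 CPM in the knockout (5 to 26 and 6 to 44 counts), overlapping throughout apart from knockout 1. Its log2 fold change was 0.34 ± 0.58 (adjusted p = 0.673), and −0.76 without knockout 1. noxo1a, at 0.718 to 2.92 CPM in wild type and 0.915 to 4.1 CPM in the knockout, had 0.54 ± 0.52 (adjusted p = 0.449). nox1 was at 2.63, 1.74, 2.38 and 9.23 CPM in wild type and 3.56, 2.42, 2.45 and 2.14 CPM in the knockout, with −0.59 ± 0.41 (adjusted p = 0.274) and 0.26 without wild type 4 (adjusted p = 0.476). cyba stood at 22.5 to 27.8 CPM in wild type and 28.7 to 31.2 CPM in the knockout, without overlap but with an adjusted p of 0.0662 (0.24 ± 0.10). It passed, at 0.29, without conventional wild type 1 (adjusted p = 0.0472).

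nos2b was the member that passed between genotypes under both conventional and germ-free rearing in experiment 2. Conventional wild type libraries held 0.195, 0.342, 0.491 and 0.595 CPM (6 to 17 counts) and conventional knockout libraries 1.04, 1.35, 1.02 and 1.29 CPM (28 to 35 counts). All knockout libraries were above all wild type libraries, and the log2 fold change was 1.53 ± 0.32 (adjusted p = 0.00092). In germ-free larvae it was at 0.351, 0.376, 0.632 and 0.627 CPM in wild type and at 2.45, 1.70, 1.2 and 2.14 CPM in the knockout. Again the groups did not overlap, and nos2b rose by 1.90 ± 0.31 (adjusted p = 0.000127). The co-housed knockout, at 1.71, 1.11, 1.07 and 1.61 CPM, was 1.76 ± 0.32 above conventional wild type (adjusted p = 0.000312). That comparison differs in housing as well as genotype and shares its wild type libraries with the conventional one. The increases of nos2b passed in all 15 alternative settings of each of these 3 comparisons, with a largest adjusted p of 0.00614, 0.00136 and 0.00687. In experiment 1 the knockout, at 1.02 to 1.90 CPM, was in the range of the knockout groups of experiment 2, and wild type, at 0.708 to 1.60 CPM, was above the wild type groups of experiment 2.

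**Figure D3:**
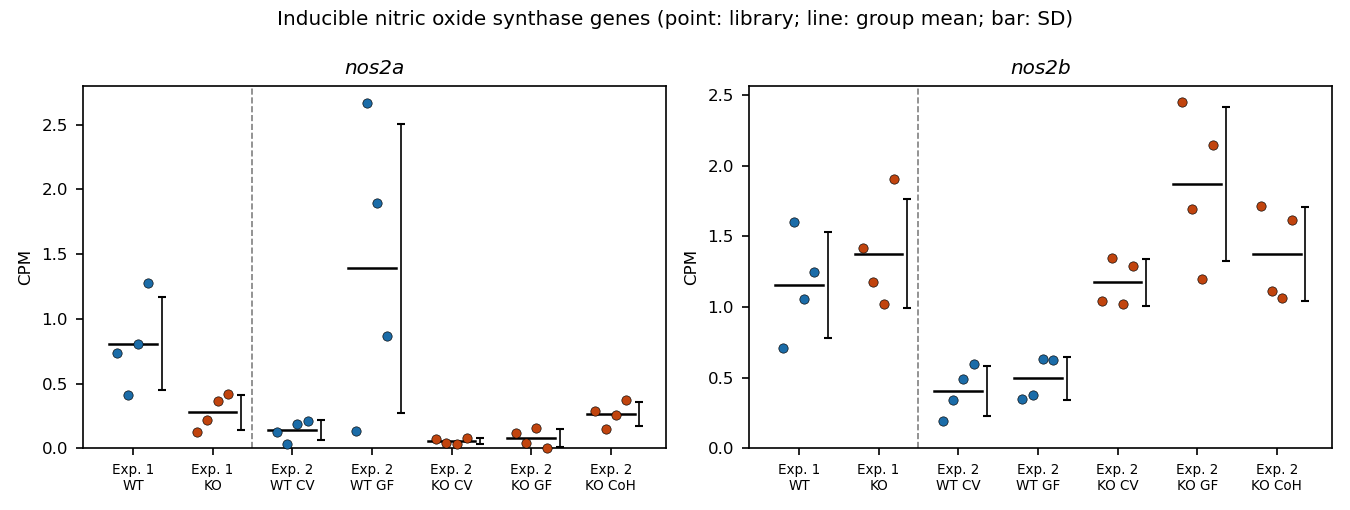
CPM of nos2a and nos2b in each of 28 libraries (linear y axis), by group; points are libraries (blue wild type, red knockout), lines group means and bars SD (n = 4), with the separately counted experiments parted by a dashed line. nos2a is above 0.8 CPM in 3 germ-free wild type libraries and 2 wild type libraries of experiment 1, and nos2b is above 1 CPM in all 12 knockout libraries of experiment 2 and under 0.64 CPM in its wild type libraries.

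The genotypes also differed in nox1 without microbes. Germ-free wild type libraries had 8.52, 11, 7.74 and 8.04 CPM and germ-free knockout libraries 3.74, 3.24, 4.21 and 4.57 CPM. These groups did not overlap, with a log2 fold change of −1.17 ± 0.40 (adjusted p = 0.039). The call was lost when any library except germ-free wild type 3 was left out (adjusted p of 0.0526 to 0.0995), while the value stayed between −1.25 and −1.04. noxo1b (−0.35 ± 0.66), noxo1a (−0.58 ± 0.53) and cyba (−0.10 ± 0.10) did not pass. In conventional larvae 1 of 5 members tested was higher, where 36.2% of genes changed and 17.0% were higher. In germ-free larvae 1 was higher and 1 lower, where 26.8% of genes changed, 13.5% higher and 13.3% lower. Members did not overlap in 2 of 5 cases in each, against 31.3% and 29.8% of all genes.

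In wild type nox1 and cyba passed between rearings in the main fit, but neither call held in all settings. With only the groups compared the adjusted p was 0.152 for nox1 and 0.0683 for cyba. Without the libraries with muscle transcripts it was 0.209 and 0.0999. nox1 averaged 4.0 ± 3.51 CPM under conventional rearing and 8.83 ± 1.51 CPM in germ-free larvae, a rise of 1.14 ± 0.40 in log2 (adjusted p = 0.044), the groups overlapping only through conventional wild type 4 at 9.23 CPM. Without that library, singled out in part by its own nox1 level, the value was 2.0 (adjusted p = 3.5e-05). Without any other single library of these groups it was 0.91 to 1.21 with an adjusted p of 0.0564 to 0.132. cyba fell by 0.28 ± 0.10 (adjusted p = 0.044), from 22.5 to 27.8 CPM down to 19.0 to 22.4 CPM, without overlap. That call was lost without any library except conventional wild type 2 (adjusted p of 0.062 to 0.131). Of 5 members 1 was higher and 1 lower, where 25.2% of genes changed, 12.1% higher and 13.2% lower, and 1 of 5 did not overlap, against 17.1% of genes.

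In the knockout cyba fell in germ-free larvae by 0.62 ± 0.10 (adjusted p = 0.000283), from 31.2, 28.7, 29.7 and 30.2 CPM to 19.1, 18.4, 24.0 and 16.5 CPM. The groups did not overlap, and the fall passed in all 15 alternatives. nox1 in the same comparison differed by 0.57 ± 0.41 in log2 (adjusted p = 0.328), from 2.14 to 3.56 CPM in conventional and 3.24 to 4.57 CPM in germ-free libraries. nos2b had 0.67 ± 0.29 (adjusted p = 0.093), noxo1a −0.65 ± 0.53 and noxo1b −1.24 ± 0.62 (adjusted p = 0.148). In all 1 of 5 members was lower, where 27.2% of genes changed and 13.3% were lower, and 1 of 5 did not overlap, against 33.5% of genes. The interaction of genotype and rearing did not pass for any of the 5 members with edgeR, where 50 genes, 0.444% of those tested, passed. At an unadjusted p under 0.05 it counted 1 member, cyba (−0.34 ± 0.14, adjusted p = 0.272), and DESeq2 and limma called none. For nox1 it was −0.57 ± 0.57 (adjusted p = 0.67), and −1.43 without conventional wild type 4 (adjusted p = 0.0233). Over all genes the interaction count ran from 7 without conventional knockout 2 to 989 without conventional wild type 4, so the share of 0.444% holds only with every library in.

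Over the 20 libraries of experiment 2 the gene closest to nox1 was aqp7, which encodes a channel for water and glycerol, with a root-mean-square difference of 0.25 against a spread of nox1 of 0.83. aqp7 was at 30.3, 27.9, 31.3 and 84.2 CPM in conventional wild type and at 105 to 111 CPM in germ-free wild type. Conventional wild type 4 stood apart for aqp7 as for nox1. As aqp7 was picked by its likeness to nox1 over these same libraries, this is no independent support. For aqp7 germ-free knockout libraries had 52.2 to 70 CPM, conventional knockout 30.2 to 44.3 CPM and co-housed knockout 20.7 to 47.0 CPM. pdpk1a (0.36), a kinase of insulin signalling, and kctd7 (0.38) came next. nos2b was closest to fbxl14a (0.33), the claudin gene cldn11b (0.33) and trpn1 (0.36), against a spread of 0.87, and cldn11b was at 3.51 to 5.53 CPM in wild type and 9.95 to 13.9 CPM in the knockout groups. cyba was closest to jupa (0.13), the plakoglobin gene of cell junctions, b4galt6 (0.14) and arpc1a (0.15), against a spread of 0.27. For noxo1b (rdm1 and nfkbiaa, at 0.52 and 0.53 against a spread of 0.70) and noxo1a (rgs19, lima1a, nab1b, at 0.63 to 0.66 against 0.83) no gene came close.

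nos2a had too few counts in experiment 2 for the fit across all genes and was compared by exact permutation tests on log2 CPM, two-sided. Germ-free wild type libraries held 3, 71, 48 and 25 counts, or 0.132, 2.67, 1.89 and 0.870 CPM. Conventional wild type had 1 to 6 counts, conventional knockout 1 to 2, germ-free knockout 0 to 4 and co-housed knockout 4 to 9. Germ-free wild type 2, 3 and 4 were above all 16 libraries of the other groups of experiment 2, and germ-free wild type 1 was not. The exact p was 0.0857 for germ-free against conventional wild type and 0.0571 for the germ-free knockout against germ-free wild type (0.15 and 0.133 after adjustment over 7 tests). The library without a count, germ-free knockout 4, allows up to 3 counts or 0.119 CPM, which covers counting error only.

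stat1b, whose level is known in mammals to follow interferon, was at 9.92, 23.8, 50.4 and 11.6 CPM in the same germ-free wild type libraries. It was also at 4.05 to 39.9 CPM in germ-free knockout libraries, where nos2a had 0 to 4 counts. A link between stat1b and nos2a was not tested. The share of nos2b in the summed nos2 TPM was 12.1% to 72.2% in germ-free wild type and 87.7% to 100% in germ-free knockout.

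Co-housing was compared with conventional and germ-free rearing within the knockout. Against conventional rearing none of the 5 members passed with edgeR, where 2.59% of genes changed, and DESeq2 and limma also called none. At an unadjusted p under 0.05 the test counted 1 member, noxo1a, which was at 4.1, 1.62, 0.915 and 2.34 CPM in the conventional and 0.905, 0.888, 0.853 and 0.786 CPM in the co-housed libraries. These did not overlap, by a gap smaller than the range of either group, and the log2 fold change was −1.38 ± 0.55 (adjusted p = 0.196). For this comparison 1 of 5 members did not overlap, against 12.6% of genes. nos2a had 4 to 9 counts in co-housed and 1 to 2 in conventional knockout libraries. The exact permutation p was 0.0286 (0.133 after adjustment), and no smaller value is possible with 4 libraries a group.

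Against germ-free knockout, cyba was higher in the co-housed knockout by 0.49 ± 0.10 (adjusted p = 0.0113). It was at 28.2, 30.9, 25.5 and 24.6 CPM in the co-housed group, all above the germ-free libraries at 16.5 to 24.0 CPM, and the call was lost without co-housed knockout 2 (adjusted p = 0.0511). There 1 of 5 members was higher, where 7.27% of genes changed and 3.93% were higher, and 1 of 5 did not overlap, against 15.3% of genes. The co-housed knockout differed from conventional wild type in 1 of 5 members, nos2b, which was higher, where 33.2% of genes changed and 16.1% were higher, and the same 1 did not overlap, against 26.0% of genes. In that last comparison nox1 did not pass, at −0.60 ± 0.41 (adjusted p = 0.286) and 0.25 without conventional wild type 4 (adjusted p = 0.504). The comparisons of the co-housed knockout share their conventional or co-housed knockout libraries with each other.

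**Figure D4:**
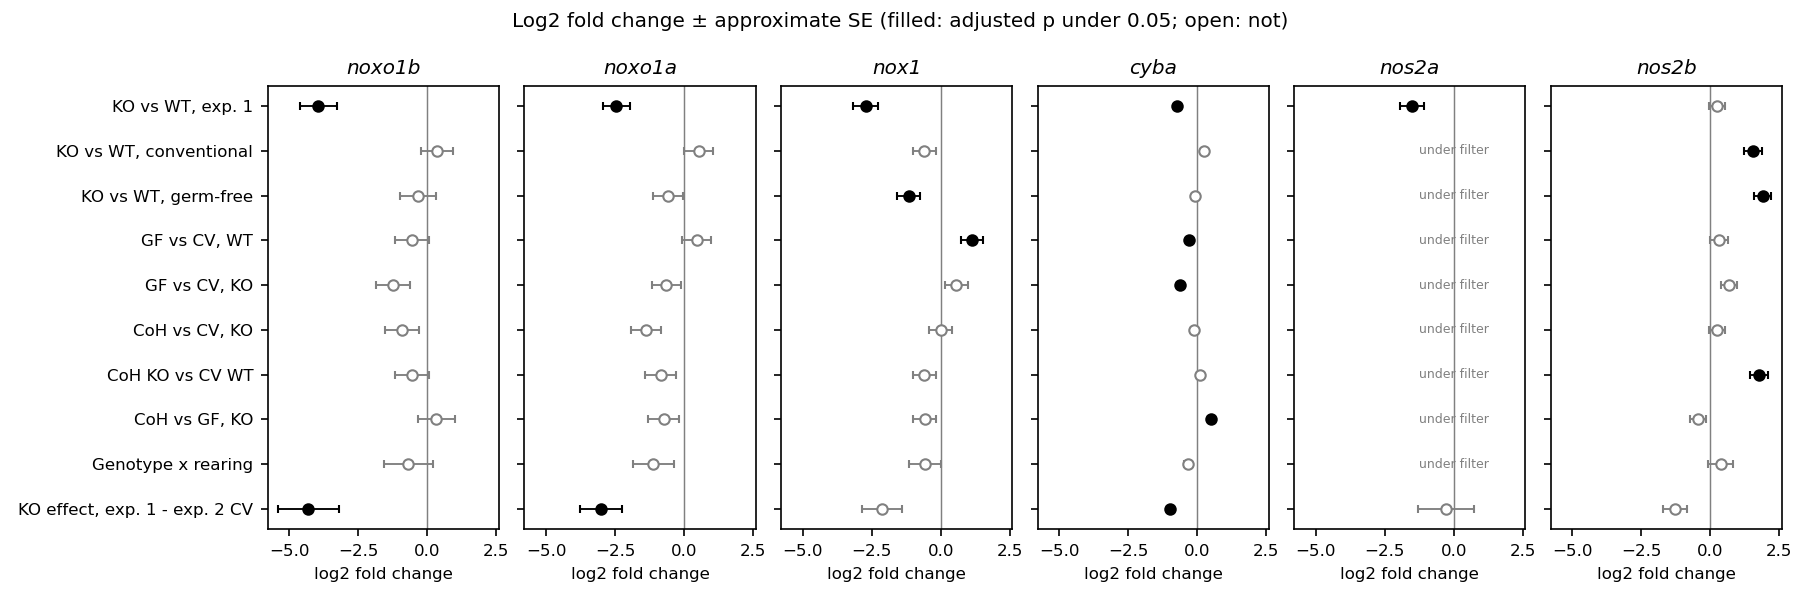
Log2 fold change with approximate SE (x axis, shared by the 6 panels) of each measured member in 10 comparisons (rows; KO knockout, WT wild type, CV conventional, GF germ-free, CoH co-housed), filled where the adjusted p is under 0.05; nos2a had too few counts for the fit in the rows marked under filter. Filled points are the falls of noxo1b, noxo1a, nox1, cyba and nos2a in experiment 1, nos2b in 3 knockout comparisons of experiment 2, nox1 and cyba in comparisons of rearing or germ-free genotype, and noxo1b, noxo1a and cyba in the last row.

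The knockout effect was compared directly between experiment 1 and conventional larvae of experiment 2, in a fit of both. The difference was −4.31 ± 1.1 on the log2 scale for noxo1b (adjusted p = 0.0236), −3.00 ± 0.76 for noxo1a (adjusted p = 0.0231) and −0.99 ± 0.11 for cyba (adjusted p = 7.4e-05), lower in experiment 1. It did not pass for nox1 (−2.14 ± 0.73, adjusted p = 0.0809), nos2b (−1.29 ± 0.44, adjusted p = 0.078) or nos2a (−0.28 ± 1.01, adjusted p = 0.914). So 3 of 6 members were lower, where 9.92% of genes were called and 5.07% were lower. Without conventional knockout 1, noxo1b had −3.19 (adjusted p = 0.137) and noxo1a −2.52 (adjusted p = 0.0596). nox1 passed without conventional wild type 4 (−2.98, adjusted p = 0.00399), and nos2b passed without that library (−1.55, adjusted p = 0.0291) or without wild type 1 of experiment 1 (−1.47, adjusted p = 0.0418). stat3, which fell in experiment 1 by 1.73 ± 0.15, had 0.03 ± 0.15 in conventional larvae, and its difference was −1.76 ± 0.23 (adjusted p = 0.000225). Experiment and whatever else set the tables apart cannot be told apart here.

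Among the partners of the phagocyte oxidase, ncf4 and ncf1 were higher in the knockout of experiment 2 and cybb did not pass. ncf4, which encodes p40phox, was higher in the knockout in every comparison of genotype: 11.2 to 13.5 against 6.93 to 8.36 CPM in experiment 1, 14.5 to 16.6 against 6.15 to 7.73 CPM in conventional larvae and 14.1 to 15.8 against 5.11 to 7.62 CPM in germ-free larvae. The log2 fold changes were 0.69 ± 0.09, 1.21 ± 0.11 and 1.16 ± 0.11 (adjusted p = 0.00048, 8.8e-08 and 2.0e-07). ncf1, which encodes p47phox, rose by 1.1 ± 0.19 in the conventional and 1.35 ± 0.19 in the germ-free knockout, and had 0.47 ± 0.17 in experiment 1 (adjusted p = 0.0678). Germ-free rearing lowered ncf1 in wild type by 0.98 ± 0.19 and in the knockout by 0.74 ± 0.19. cybb, the catalytic subunit of phagocytes, passed in no comparison and ranged from 4.38 to 13.1 CPM.

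Of 5 phagocyte oxidase genes tested, 1 was higher in the knockout of experiment 1, 3 in the conventional knockout (with rac2 at 0.51 ± 0.11), and 2 higher and 1 lower in the germ-free knockout. That was 20%, 60% and 60% of the list, where 33.1%, 36.2% and 26.8% of all genes were called. Their median log2 fold changes were 0.17, 0.51 and 0.02 beside medians of all genes of −0.01, −0.02 and −0.00382. In experiment 1 the count was 2 without wild type 1, wild type 4 or knockout 1. Germ-free rearing lowered 2 of 5 in each genotype, where 25.2% of all genes changed in wild type and 27.2% in the knockout. Macrophage markers summed in experiment 1 to 14.1 to 19.9 CPM in wild type and 24.8 to 30.7 CPM in the knockout, with mpeg1.1, c1qa, c1qb and c1qc listed at 0 in every library. In experiment 2 the conventional ranges were 15.2 to 30.9 and 14.2 to 28.4 CPM. Neutrophil markers were dominated by cpa5, at 99.5% or more of their sum. The other 6 summed in experiment 1 to 13.3 to 17.4 CPM in wild type and 11.7 to 17.8 CPM in the knockout, and in conventional larvae to 16.4 to 42.0 and 14.7 to 21.1 CPM. Their part in these changes was not tested. noxa1, the activator of the NOX1 complex, was listed at 0 counts in all 28 libraries. So were the muscle genes ckma and mylpfa, even where other muscle genes summed to 833 CPM, so a row at 0 is given here without a limit on the level. nox4, nox5 and the DUOX maturation factor genes had no row used here.

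**Figure D5:**
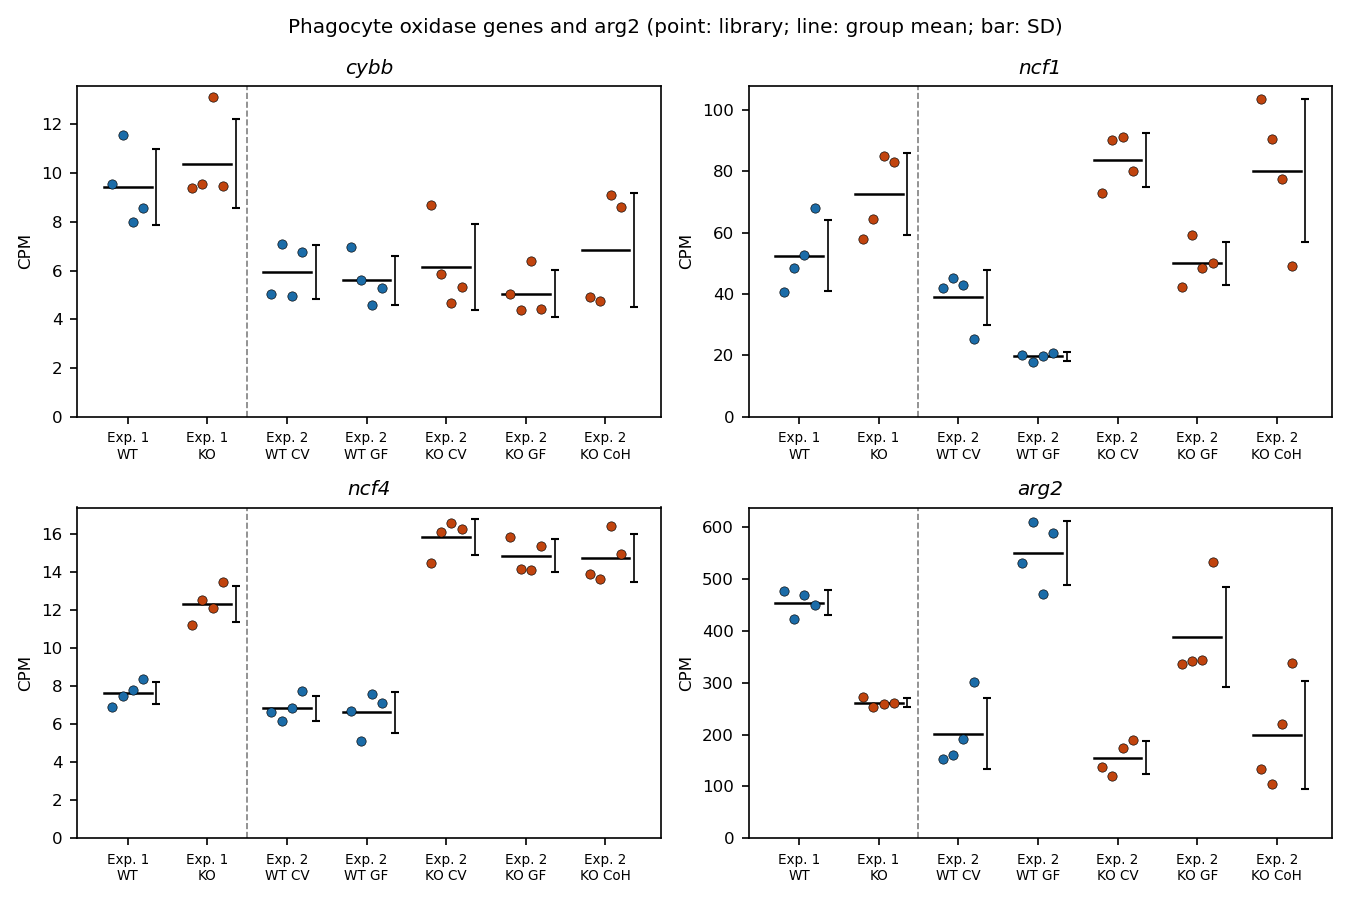
CPM of the phagocyte oxidase genes cybb, ncf1 and ncf4 and of arg2 in each of 28 libraries (linear y axes), by group; points are libraries (blue wild type, red knockout), lines group means, bars SD (n = 4), and the dashed line parts the experiments. ncf4 is at 11.2 CPM or more in every knockout library and at 8.36 CPM or less in every wild type library, and arg2 is at 472 to 609 CPM in germ-free wild type against 153 to 301 CPM in conventional wild type.

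Enzymes that remove superoxide and peroxide were measured as a list. In the knockout of experiment 1, 7 of 19 tested rose and 4 fell, with a median of 0.04, and the share called was 57.9% against 33.1% of all genes. The glutathione peroxidase gene gpx1b fell from 306 ± 28.3 to 88.3 ± 11.6 CPM (−1.79 ± 0.11 in log2, adjusted p = 6.7e-06) and the peroxiredoxin gene prdx1 from 93.4 ± 29.2 to 24.3 ± 6.63 CPM (−1.94 ± 0.27, adjusted p = 0.00094). prdx4 rose by 0.72 ± 0.11. In conventional larvae 3 of 21 rose and 2 fell in the knockout, including gsr, which recycles glutathione, at −0.96 ± 0.14, and in germ-free larvae 4 rose and 2 fell, with gsr at −0.98 ± 0.14. These were 23.8% and 28.6% of the list, against 36.2% and 26.8% of all genes. gsr had also fallen in experiment 1, by 0.61 ± 0.10. The effect on gpx1b was lower in experiment 1 than in conventional larvae (log2 difference −1.5 ± 0.17, adjusted p = 5.8e-05), where its knockout libraries averaged 90.6 ± 13.3 CPM and its wild type libraries 111 ± 12.7 CPM. Germ-free rearing lowered 7 of 21 in wild type and lowered 6 and raised 1 in the knockout, and 4 were called without conventional wild type 2 or conventional knockout 3, respectively. Each was 33.3% of the list, against 25.2% and 27.2% of all genes. Among these, sod1, which turns superoxide into peroxide, had −0.46 ± 0.08 in wild type and −0.44 ± 0.08 in the knockout.

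Among genes of the NRF2 pathway, which acts in the response to oxidative stress, 2 of 13 rose and 2 fell in the knockout of experiment 1. That was 30.8%, near the 33.1% of all genes. The pentose phosphate gene taldo1, whose pathway makes NADPH, fell in all 3 comparisons of genotype, by 0.49 ± 0.07, 0.57 ± 0.07 and 0.67 ± 0.07. In the conventional knockout 1 of 14 rose and 3 fell, among them hmox1a, which breaks down haem, at −1.88 ± 0.24, and the share was 28.6% against 36.2% of all genes. Germ-free rearing raised 1 and lowered 4 in wild type and raised 2 and lowered 5 in the knockout, 35.7% and 50% of the list against 25.2% and 27.2% of all genes.

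Arginine, the substrate of nitric oxide synthase, and its cofactor tetrahydrobiopterin were not measured themselves. Transcripts were followed for 15 genes of arginine, tetrahydrobiopterin and nitric oxide synthesis. Of these, 5 rose and 2 fell in the knockout of experiment 1, 6 rose and 1 fell in conventional larvae and 7 rose in germ-free larvae, with medians of 0.26, 0.14 and 0.36. In each case 46.7% of the list was called, where 33.1%, 36.2% and 26.8% of all genes were. asl, which makes arginine, rose in all 3, by 2.42 ± 0.26, 1.27 ± 0.20 and 1.99 ± 0.21, and qdpra, which recycles the cofactor, by 1.19 ± 0.16, 0.60 ± 0.12 and 1.00 ± 0.12. slc7a2, a carrier of arginine, rose by 1.96 ± 0.50, 1.27 ± 0.26 and 1.59 ± 0.25. arg2, which competes with nitric oxide synthase for arginine, fell in the knockout of experiment 1 from 455 ± 24.0 to 262 ± 8.08 CPM (−0.80 ± 0.06, adjusted p = 3.0e-05). Rearing moved it further: germ-free wild type had 550 ± 62.0 CPM against 202 ± 68.5 CPM (1.45 ± 0.31) and germ-free knockout 389 ± 96.4 CPM against 155 ± 32.1 CPM (1.32 ± 0.31). Conventional wild type 4, at 301 CPM, was kept in the wild type comparison. gch1, the first enzyme of tetrahydrobiopterin synthesis, fell in germ-free larvae by 1.54 ± 0.26 in wild type and by 1.06 ± 0.25 in the knockout. nos1, the neuronal synthase, did not pass in any comparison, at group means of 13.6 to 21.8 CPM.

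Cytokine and transcription factor genes known in mammals to act on these oxidases and synthases were also counted. The list holds il22 itself, which was among the genes tested in experiment 1, so the count there is not independent of the design. In experiment 1, 2 of 20 rose and 6 fell in the knockout, including il17ra1a, an interleukin-17 receptor gene, at −1.02 ± 0.09, and rela, a subunit of NF-kB, at −0.38 ± 0.09. In conventional larvae 1 of 15 rose and 5 fell, with il17ra1a at −0.57 ± 0.15 and the bacterial sensor gene nod2 at −0.60 ± 0.19. In germ-free larvae 4 of 15 fell, among them rela at −0.33 ± 0.08. The shares called were 40%, 40% and 26.7%, near the 33.1%, 36.2% and 26.8% of all genes. Germ-free rearing raised 5 and lowered 1 in wild type, led by the intestinal factor gene cdx1b at 0.60 ± 0.12 and stat1b at 4.03 ± 0.90, and raised 4 and lowered 3 in the knockout, 40% and 46.7% of the list against 25.2% and 27.2% of all genes. These counts moved with single libraries. In conventional larvae 3 genes were called without wild type 2, wild type 4, knockout 2 or knockout 3 and 2 without knockout 4, and in germ-free larvae 2 were called without knockout 1. For germ-free against conventional wild type 3 were called without conventional wild type 3 and 10 without conventional wild type 4.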

How the data were processed

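RNA of 28 gut libraries was sequenced from a stranded mRNA kit (TruSeq), in read pairs of 100 bases, per the labels' protocols. The submitters' processing notes name FastQC 0.11.8 and danRer11. Not given in the sources used here are the aligner, the counter with its strand setting, the annotation, and how reads shared by the paired copies (noxo1a and noxo1b, nos2a and nos2b) were assigned. For each experiment the authors deposited raw read counts per gene and TPM, which they scaled by length and library total; TPM was missing for 1886 rows of experiment 1. Transcript identifiers of experiment 1 were named through RefSeq assembly GCF_049306965.1 (GRCz12tu), with 15776 of 16134 rows matched; the 358 others held 0.414% of its counts. In experiment 2, 910 older symbols were updated and 198 names kept. No promoter or protein sequence was used.

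Counts were tested with the robust quasi-likelihood test of edgeR 4.0.16 (R 4.3.3) after TMM scaling and its filterByExpr by group. P-values were adjusted over all genes by Benjamini and Hochberg, with a threshold of 0.05. Experiment 1 (8 libraries) and the 5 groups of experiment 2 (20 libraries) were each fitted as a whole, and the difference between experiments on 16 libraries. All 6 measured members passed the filter on low counts in experiment 1, and 5 in experiment 2. CPM are per 1e+06 counts of the TMM-scaled library. The first-named group is the numerator, and the approximate SE was obtained by dividing the size of the log2 fold change by the root of F. nos2a was tested in experiment 2 by exact permutation with scipy 1.17.1. The scripts were tested on simulated data, where the false share among calls was above the nominal level for experiment 1 and at it for experiment 2. Alternatives were RLE scaling, no filter, a replicate block, DESeq2 1.42.0, limma 3.58.1 on log2(TPM + 1), only the groups compared, leaving out each library and leaving out the libraries with muscle transcripts.

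The members and lists were chosen with earlier results of these data known. Main test results of members that passed are all given, and those that did not pass are given in part. From each list, up to 3 genes of smallest p, members of a list whose count is given, named partners of the oxidases and synthases, and the 3 genes most like each member were named; a few genes this rule takes are not reported here. Libraries of a group differed beyond counting noise (chi-square per gene of 15.1 to 129 between pairs), so none was counted as a duplicate. Counts limit precision where a group has few of them, and floors cover counting error only. The SD and SE given here include the spread between pools.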

Additional observations from a re-analysis of the deposited data

Results flagged for a closer look

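In 4 of 42 sets of 4 libraries the highest value of a member stood apart from the others by Dixon's criterion on the gap over the range, where chance gives about 1 in 20. In wild type 4 of experiment 1, noxo1b was at 58.5 CPM and nox1 at 56.6 CPM, with gaps of 0.944 and 0.956 of the range. In conventional knockout 1 of experiment 2 noxo1b was at 1.58 CPM (0.895), and in conventional wild type 4 nox1 was at 9.23 CPM (0.882). The knockout effect also differed between experiment 1 and conventional larvae of experiment 2 by a direct test, by a log2 difference of −4.31 for noxo1b, −3.00 for noxo1a and −0.99 for cyba.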

How the results depend on the processing

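In experiment 1 the falls of noxo1b, noxo1a, nox1 and cyba passed in all 13 alternatives, with log2 ranges of −4.45 to −3.07, −2.77 to −1.99, −3.01 to −2.41 and −0.80 to −0.69. Between experiments noxo1b, noxo1a and cyba passed in all other settings but the omission of conventional knockout 1 (noxo1b, noxo1a). The number of members called moved in experiment 2. In conventional larvae it went from 1 to 2 with only the groups compared and without the libraries with muscle transcripts, and was 1 to 2 with single libraries left out. In germ-free larvae it went from 2 to 1 without the muscle libraries (nox1 at −1.04, adjusted p = 0.0965), and was 1 to 2 with single libraries left out. For germ-free against conventional wild type it went from 2 to 0 with only the groups compared and without the muscle libraries, to 1 with the replicate block, and 0 to 2 with single libraries left out. For germ-free against conventional knockout it went from 1 to 2 with only the groups compared (nox1 at 0.57, adjusted p = 0.0352) and on TPM (nos2b at 0.23, adjusted p = 0.0368). For co-housed against germ-free knockout it went from 1 to 0 with only the groups compared and without the muscle libraries. Leaving out single libraries gave 0 to 1 for co-housed against germ-free knockout, 0 to 1 for the interaction and 1 to 5 for the difference between experiments. The cause of these moves was not tested.

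The labels do not say that replicate numbers pair libraries. Same-numbered deviations correlated above 0.1 in 1 of 4 pairs in experiment 1 and in 0 to 2 of 4 in experiment 2. With so few libraries a group, these correlations cannot decide whether libraries were paired. With the replicate block, cyba in germ-free against conventional wild type had −0.28 (adjusted p = 0.0572), and the nox1 difference between experiments passed at −2.44 (adjusted p = 0.0256), as with DESeq2 (−2.12, adjusted p = 0.0387).

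Directions reversed among values that did not pass. With single libraries left out noxo1b ranged from −0.76 (without conventional knockout 1) to 0.86 in conventional larvae. It ranged from −1.20 to 0.19 for co-housed against conventional knockout and from −1.21 to 0.41 for the interaction, both highest without conventional knockout 1. nox1 ranged from −0.83 to 0.26 in conventional larvae and from −0.87 to 0.25 for co-housed knockout against conventional wild type, both highest without conventional wild type 4. nox1 for co-housed against conventional knockout was 0.000278 with only the groups compared, 0.14 without the muscle libraries and 0.17, 0.18 and 0.12 without conventional knockout 1, co-housed 1 or co-housed 2. Its lowest value with a library left out was −0.28. The nos2a difference between experiments ranged from −0.55 to 0.023, with 0.018 without wild type 4 of experiment 1 and 0.023 without conventional wild type 2.

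Counts over all genes moved by over 1.5 times: 2838 to 1270 (only the groups compared) and 1814 (no muscle libraries) for germ-free against conventional wild type; 292 to 582 (DESeq2), 177 (TPM) and 564 (no muscle libraries) for co-housed against conventional knockout; 3733 to 2465 (only the groups compared) for co-housed knockout against conventional wild type. For co-housed against germ-free knockout 818 became 1308, 368, 357 and 196 (DESeq2, groups compared, TPM, no muscle libraries), and for the interaction 50 became 347, 82 and 13 (DESeq2, groups compared, no muscle libraries). Single libraries moved such counts too, from 1695 to 4154 for germ-free against conventional wild type (without conventional wild type 3 and 4), from 102 to 495 for co-housed against conventional knockout (without co-housed 4 and 2) and from 135 to 1483 for co-housed against germ-free knockout (without co-housed 2 and 4). They moved from 7 to 989 for the interaction (without conventional knockout 2 and conventional wild type 4) and from 798 to 1900, against 1096, for the difference between experiments (without wild type 4 of experiment 1 and conventional wild type 4). The shares of all genes called move with them. nos2a in experiment 2 had too few counts for the fit. Members under 1 CPM are limited by depth.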
